A study of Mus musculus with 6 samples.

Results

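TRBV13-1 and TRBV13-3 (genes Trbv13-1 and Trbv13-3) are a pair of closely related V segments of the mouse T cell receptor beta chain (TCRB). Their members were all TCRB rearrangements listed with either V segment, with allele suffixes ignored, in 6 samples of splenic T follicular regulatory (Tfr) cells from 3 mice. They made up 378 of 4409 listed rearrangements and 613 of 7043 templates, or 8.70% of templates. Trbv13-1 had 168 listed rearrangements and 266 templates, and Trbv13-3 had 210 and 347. Each mouse gave 1 sample called superior and 1 called inferior; the sources used here explain these words no further, so they serve only as group names. All mice had the Foxp3GFP genotype, in which GFP reports Foxp3; their age is not given in the sources used here, and no agent or treatment is named. The cells were sorted, their genomic DNA was extracted and TCRB was amplified with the immunoSEQ kit at survey resolution. DNA rearrangements hold no cell type markers, so the Tfr label could not be checked against them.

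A TCRB chain is made by joining 1 V, 1 D and 1 J segment. Bases are trimmed from the segment ends and untemplated bases are added at the joins, and the result is CDR3, the loop that touches the peptide. CDR1 and CDR2, which touch mainly the MHC molecule, are encoded in the V segment itself. Sister V segments therefore differ in the fixed part of the receptor, while the joined CDR3 differs from cell to cell. The mouse TRBV13 segments form the Vβ8 family of the older naming, a much studied family of mouse CD4 T cells. Tfr cells are regulatory CD4 T cells, marked by Foxp3, that enter B cell follicles and restrain germinal centre reactions.

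By RefSeq's annotation of GRCm38.p6, which corresponds to mm10, TRBV13-1 lies on chromosome 6 at 41116036 to 41116468, TRBV13-2 at 41121396 to 41121832 and TRBV13-3 at 41130147 to 41130585. The third sister, TRBV13-2, thus sits between them, 4.93 kb after TRBV13-1 and 8.32 kb before TRBV13-3. The deposited reads are 87 bases long and cover the 3′ end of the V segment and all of CDR3 but its last residue. The V ends below show how the sisters can be told apart in these reads. Each is the most common 33 bases before CDR3 followed by the first 15 bases of CDR3, and capitals mark the 10 positions of these 48 at which the sisters differ.
TRBV13-1 end: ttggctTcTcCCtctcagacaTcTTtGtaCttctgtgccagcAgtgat
TRBV13-2 end: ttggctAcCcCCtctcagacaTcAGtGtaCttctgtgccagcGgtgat
TRBV13-3 end: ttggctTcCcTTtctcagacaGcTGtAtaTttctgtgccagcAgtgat
Over the 33 bases before CDR3, TRBV13-1 and TRBV13-3 differed at 7, TRBV13-1 and TRBV13-2 at 4, and TRBV13-3 and TRBV13-2 at 7. This stretch had its most common form in 162 of 167 TRBV13-1 rearrangements (97.0%) and in 199 of 208 TRBV13-3 rearrangements (95.7%), against 441 of 582 for TRBV13-2 (75.8%). All 5, 9 and 141 rearrangements with another form held 1 template each. Among these, 3 of 5, 9 of 9 and 141 of 141 had the CDR3 bases and J segment of a rearrangement with the common form in the same sample. The stretch was closest to the most common form of the listed segment in 166 of 167 TRBV13-1 and in 208 of 208 TRBV13-3 rearrangements.

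TRBV13-3 held more templates than TRBV13-1 in every sample. In the superior samples of mice 1, 2 and 3, TRBV13-1 held 3.90%, 3.56% and 4.58% of templates, and TRBV13-3 held 4.50%, 5.48% and 4.84%. In the inferior samples, TRBV13-1 held 3.80%, 2.94% and 3.77%, and TRBV13-3 held 4.45%, 4.24% and 5.50%. TRBV13-3 was thus higher in 6 of 6 samples, although the 95% Wilson intervals of the pair overlapped in each. Over both samples of a mouse together, TRBV13-3 held 4.88% ± 0.392 and TRBV13-1 3.73% ± 0.411 of templates (mean ± SD, n = 3 mice). The difference of 1.15 ± 0.5001 percentage points had the same sign in 3 of 3 mice (two-sided exact sign-flip test, p = 0.25, adjusted p = 0.333). This p is the smallest that 3 mice allow. With each rearrangement counted once, TRBV13-1 was the higher in the superior sample of mouse 1, with 22 rearrangements (4.84%) against 17 (3.74%). Over both samples the shares were then equal in mouse 1, at 4.31%, and TRBV13-3 was higher in mice 2 and 3, with a mean difference of 0.928 ± 0.805 points. Over all samples TRBV13-3 ranked 8th and TRBV13-1 13th of 29 V segments by templates, and TRBV13-2 ranked 1st with 12.1%.

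**Figure D1:**
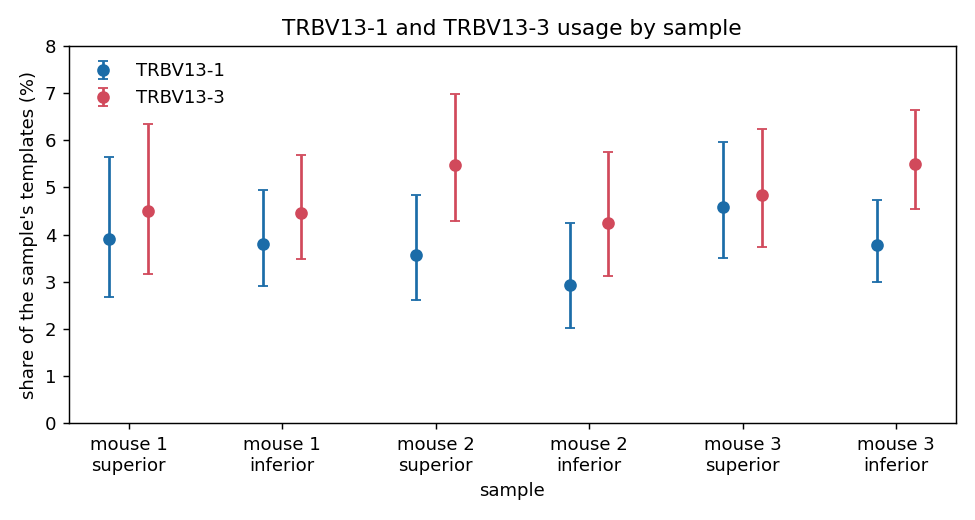
Share of each sample's templates (percent, y axis) held by TRBV13-1 (blue) and TRBV13-3 (red) in the 6 samples (x axis); bars are 95% Wilson intervals, which cover counting error only. TRBV13-3 lies above TRBV13-1 in 6 of 6 samples, with overlapping intervals.

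Usage of neither segment passed the test for superior against inferior samples. The superior samples had 4.01% ± 0.517 of their templates from TRBV13-1 and the inferior ones 3.50% ± 0.491 (n = 3 each), and superior was higher in 3 of 3 mice. The log2 difference was 0.18 (SE 0.24, adjusted p = 0.898, edgeR quasi-likelihood test). TRBV13-3 held 4.94% ± 0.498 and 4.73% ± 0.674, superior being higher in 2 of 3 mice, with a log2 difference of 0.06 (SE 0.21, adjusted p = 0.977). Of the 23 V segments tested, edgeR called 0 (0.0%), with 2 at an unadjusted p under 0.05, and DESeq2 called 0. The direction for TRBV13-3 depended on what was counted. Its share of rearrangements in mice 1, 2 and 3 was 3.74%, 4.38% and 4.74% in superior samples and 4.43%, 4.98% and 5.58% in inferior samples, so superior was lower in 3 of 3 mice. The difference within mice was -0.712 ± 0.119 points; the log2 difference was -0.21 (adjusted p = 0.806) and, with mouse as a block, -0.22 (adjusted p = 0.838). TRBV13-1 went the other way by this measure, with a difference within mice of 0.894 ± 0.587 points and superior higher in 3 of 3 mice (log2 difference 0.31 with mouse as a block, adjusted p = 0.838). The p-values measure the spread between these samples, which held 667 to 1855 templates.

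J segments are grouped in 2 clusters, each behind its own D segment, and the choice of J fixes the last residues of CDR3. Both segments took most of their J segments from the TRBJ2 cluster, TRBV13-1 in 70.5% ± 5.57 and TRBV13-3 in 70.8% ± 8.61 of distinct rearrangements, each counted once per mouse, against 67.7% ± 0.918 for all other V segments. TRBJ2-7 had the highest mean share over mice with both segments, but for TRBV13-1 it came first only in mouse 1: TRBJ2-5 led in mouse 2, with 29.3%, and TRBJ2-4 in mouse 3, with 18.6%. TRBJ2-7 stood in 29.6%, 19.5% and 14.3% of TRBV13-1 rearrangements in mice 1, 2 and 3 and in 22.2%, 26.3% and 18.6% of TRBV13-3 rearrangements, against a mean of 22.4% ± 2.69 for all other V segments. The sister segments overlapped in this measure. No J segment passed the test between TRBV13-1 and TRBV13-3 (0 of 12 tested, 0.0%, edgeR; 0 at an unadjusted p under 0.05; 0 by DESeq2).

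The largest J differences between the sisters did not pass the test. TRBJ2-5 stood in 14.8%, 29.3% and 14.3% of TRBV13-1 and in 16.7%, 15.8% and 7.22% of TRBV13-3 rearrangements of mice 1, 2 and 3 (log2 TRBV13-1 over TRBV13-3 0.58, adjusted p = 0.897). TRBV13-1 was the higher in mice 2 and 3 only. TRBJ1-2 (0.51) and TRBJ1-4 (0.45) followed in the same direction, both with an adjusted p of 0.897. In the opposite direction, TRBJ1-3 stood in 1.85%, 2.44% and 2.86% of TRBV13-1 and in 5.56%, 3.51% and 5.16% of TRBV13-3 rearrangements, 4 against 10 rearrangements in all (log2 -0.94, adjusted p = 0.897). The values did not overlap, TRBV13-1 being lower in every mouse. Of the 12 tested J segments, TRBJ1-3 was the only one whose mouse values did not overlap between the sisters. TRBJ2-3 (-0.49) and TRBJ2-1 (-0.47) came next, again with an adjusted p of 0.897. TRBJ2-4 differed most between mice within 1 segment: it stood in 14.8% and 18.6% of TRBV13-1 rearrangements in mice 1 and 3 and in 0 of 41 in mouse 2, which allows a share of up to 7.32%. TRBV13-3 had 9.26%, 14.04% and 13.4% with this J segment.

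**Figure D2:**
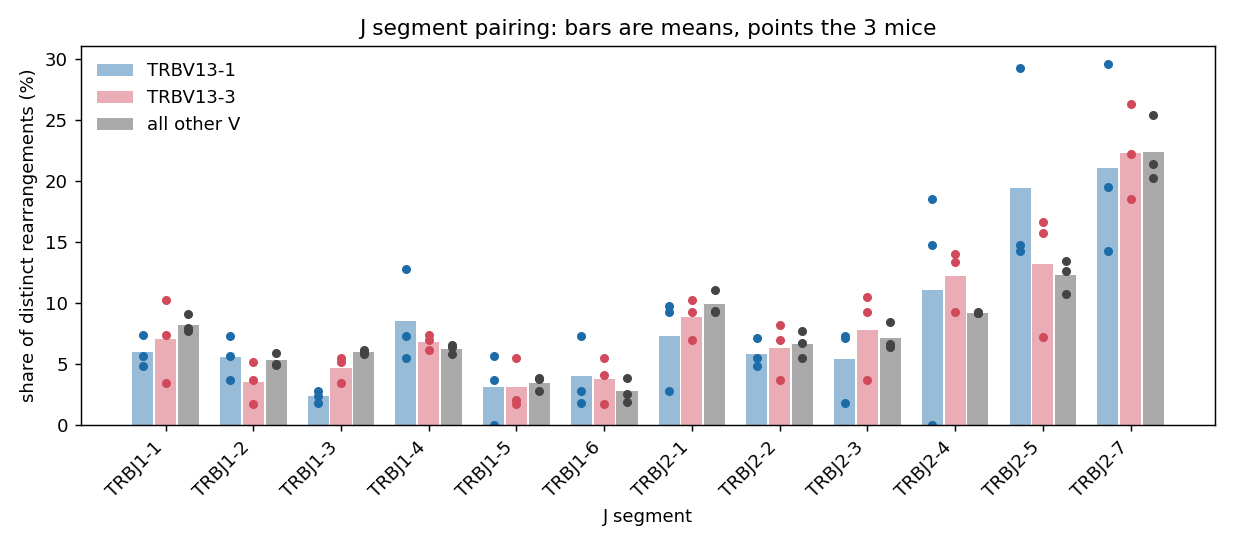
Share of distinct rearrangements (percent, y axis) with each J segment (x axis) for TRBV13-1 (blue), TRBV13-3 (red) and all other V segments (grey); bars are means over 3 mice and points are the mice. Points of the sisters overlap for most J segments; TRBV13-1 with TRBJ1-3 lies below both other sets in each mouse, and TRBV13-1 with TRBJ2-4 spans 0 to 18.6%.

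Against all other V segments, neither sister had a J segment that passed. Among all 276 V by J pairs tested, edgeR called 0 (0.0%), with 26 at an unadjusted p under 0.05, and DESeq2 called 0. The pairs of TRBV13-1 and TRBV13-3 were 24 of these, with 1 at an unadjusted p under 0.05. That pair was TRBV13-1 with TRBJ1-3, at 2.38% ± 0.505 against 6.05% ± 0.155 for all V segments but the sisters. In the edgeR test TRBV13-3 also counted among the other V segments (log2 -1.29, unadjusted p = 0.0372, adjusted p = 0.528). Set against TRBV13-2, the sisters together had 0 of 12 J segments called (0.0%, edgeR). The 1 J segment at an unadjusted p under 0.05 was TRBJ2-7, which TRBV13-2 used in 29.6% ± 6.44 of rearrangements (log2 of both sisters over TRBV13-2 -0.42, adjusted p = 0.389). DESeq2 was not run on this comparison, which was chosen after the data were seen. The fit was not rerun with rearrangements merged where V, J and the CDR3 bases agreed. TRBV13-2 had 1.35 listed rearrangements per merged one, TRBV13-1 1.018 and TRBV13-3 1.056. What such repeats do to the TRBJ2-7 share was not tested.

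D usage of the pair spread widely between mice. TRBD1 lies before the TRBJ1 cluster and can join J segments of either cluster, whereas TRBD2 lies after TRBJ1 and normally joins only TRBJ2. With TRBJ1, TRBD2 was listed in 3 of 50 TRBV13-1 and 1 of 62 TRBV13-3 rearrangements, beside 80 of 1254 for all other V segments. With TRBJ2 and a D segment named, TRBD1 was listed in 38.9% of TRBV13-1 and 40.5% of TRBV13-3 rearrangements and in 39.1% of those of all other V segments. Over both clusters TRBD1 held 55.6%, 36.7% and 66.1% of TRBV13-1 and 47.5%, 69.2% and 54.7% of TRBV13-3 rearrangements with a named D in mice 1, 2 and 3. Mouse 2 thus differed in the opposite direction from mice 1 and 3, and the mean difference of -4.36 ± 24.5 points was smaller than its spread (exact sign-flip p = 1.0). It was -20.6 points in superior and 9.66 points in inferior samples alone. No D segment was named in 21.1% of TRBV13-1 and 14.4% of TRBV13-3 rearrangements. The share was 21.8% for TRBV13-2 and 19.7% for all other V segments, TRBV13-2 included.

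CDR3 lengths of the sisters overlapped. The mean was 13.8 ± 0.178 residues for TRBV13-1 and 13.8 ± 0.0858 for TRBV13-3 (n = 3 mice), against 13.8 ± 0.0395 for all other V segments, and the difference between the sisters was 0.0031 ± 0.255 residues (exact sign-flip p = 1.0). The median was 14 in each set. Lengths ran from 9 to 17 residues with TRBV13-1 and from 10 to 18 with TRBV13-3. CDR3s of 12 or fewer residues made up 16.97%, 15.5% and 16.7% of TRBV13-1, TRBV13-3 and all other rearrangements, and those of 16 or more made up 10.9%, 8.74% and 9.86%. Of the 378 listed members, 3 had a CDR3 that did not start with cysteine, 1 of TRBV13-1 and 2 of TRBV13-3, and were left out of CDR3 features. A further TRBV13-1 rearrangement, listed with TRBJ2 but without a resolved J segment, was left out of single J segments. It was counted in the TRBJ2 cluster.

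**Figure D3:**
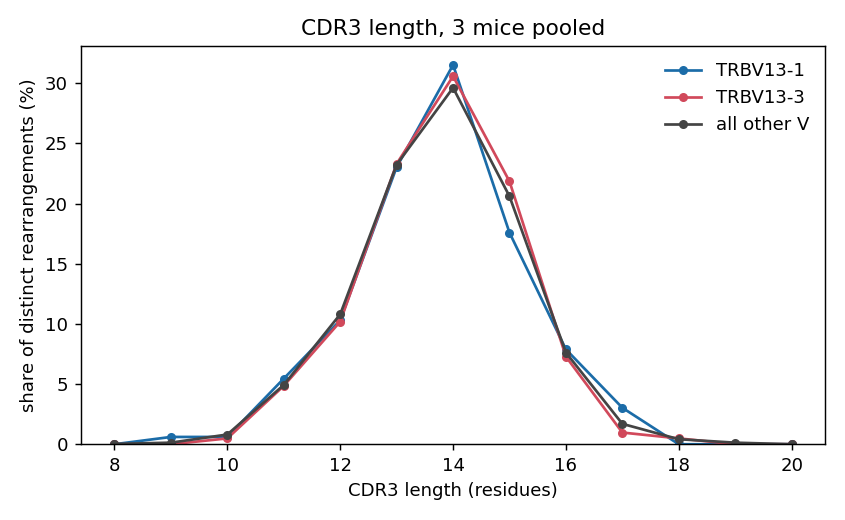
Distribution of CDR3 length (residues, x axis) as a share of distinct rearrangements (percent, y axis), with the 3 mice pooled, for TRBV13-1 (blue), TRBV13-3 (red) and all other V segments (black). The 3 curves lie close together and all peak at 14 residues.

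The start of CDR3 is where the V segment shows. Most CDR3s of the sisters began with CASS, 87.2% ± 2.89 with TRBV13-1 and 82.0% ± 0.722 with TRBV13-3, while 96.4% ± 0.569 of those of TRBV13-2 began with CASG, as the base in capitals in their V ends encodes. The next codon of all 3 V ends, gat, encodes aspartate. Aspartate at CDR3 position 5 was present in 26.4%, 36.6% and 33.8% of TRBV13-1 rearrangements in mice 1, 2 and 3 and in 30.2%, 43.9% and 35.4% of TRBV13-3 rearrangements. TRBV13-1 was lower in 3 of 3 mice, by a mean of 4.22 ± 2.86 points (TRBV13-1 32.3% ± 5.26, TRBV13-3 36.5% ± 6.90, exact sign-flip p = 0.25, adjusted p = 1.0 over 6 measures). In single samples TRBV13-1 was the higher in 2 of 6, namely mouse 1 superior and mouse 3 inferior. The difference was -7.67 points when weighted by templates and -2.69 points without mouse 2. Among 18 V segments with 50 or more rearrangements, TRBV13-2, TRBV13-3 and TRBV13-1 ranked 1st, 2nd and 3rd, and the median segment had 2.09%. All other V segments together, TRBV13-2 included, had 10.9% ± 1.22. Glutamate, whose codon shares its first 2 bases with gat, followed in 16.8% ± 2.12 of TRBV13-1 and 14.6% ± 2.35 of TRBV13-3 rearrangements, beside 12.7% ± 3.12 for TRBV13-2 and 2.76% ± 0.517 for all other V segments, TRBV13-2 included. Glycine stood there in 16.1% ± 4.56 and 13.8% ± 4.40.

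The sisters kept fewer V bases in CDR3 than TRBV13-2 did. The bases kept were read as the longest match to the segment's most common start, so an added base that happens to match counts as kept. All 14 first bases were kept in 37.7%, 51.2% and 47.9% of TRBV13-1 rearrangements in mice 1, 2 and 3, in 45.3%, 47.4% and 44.8% of TRBV13-3 rearrangements, and in 63.0%, 60.7% and 70.2% of TRBV13-2 rearrangements. The sisters overlapped with each other, and TRBV13-2 lay above both in every mouse. Pooled, the sisters kept them in 45.5% ± 3.77 and TRBV13-2 in 64.7% ± 4.96 of rearrangements (difference -19.1 ± 6.53 points, lower in 3 of 3 mice, exact sign-flip p = 0.25, adjusted p = 0.333). Aspartate at position 5 differed likewise, at 34.6% ± 6.26 against 56.4% ± 8.86 (difference -21.8 ± 13.1, lower in 3 of 3 mice, exact sign-flip p = 0.25, adjusted p = 0.333). It is not a separate observation, because the codon of position 5 takes in bases 13 and 14 of CDR3. With rearrangements merged where V, J and the CDR3 bases agreed, the differences were smaller, at -16.85 points for 14 bases and -20.0 points for aspartate. Between the sisters the difference at 14 bases was -0.200 ± 6.37 points (exact sign-flip p = 1.0); it was -6.60 in superior and 3.47 in inferior samples alone. At 11 bases TRBV13-1 kept the start in 94.9% ± 2.36 and TRBV13-3 in 87.4% ± 1.90 of rearrangements. The shares were 69.06% ± 2.625 and 63.73% ± 2.143 at 13 bases, and 20.02% ± 2.664 and 11.25% ± 4.184 at 16 bases. The mouse values of the sisters did not overlap at 11, 13 and 16 bases. They overlapped at the other counts from 6 to 17 bases. No test was run at 11, 13 or 16 bases.

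**Figure D4:**
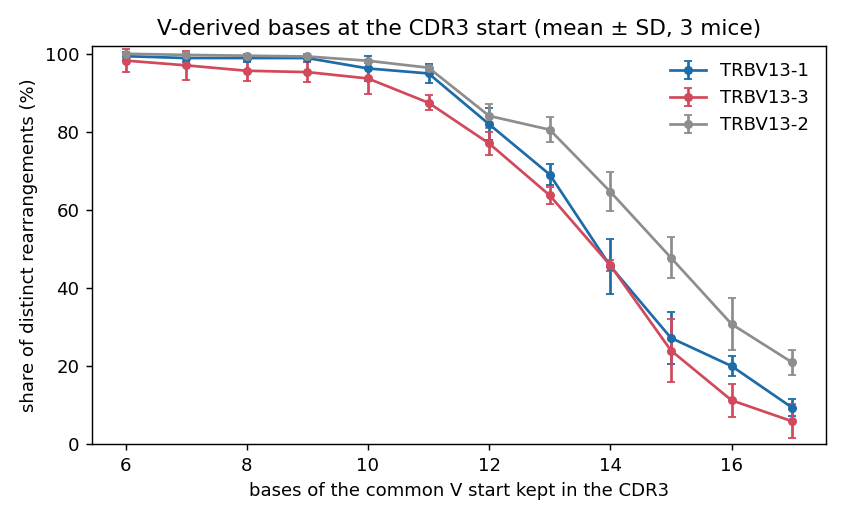
Share of distinct rearrangements (percent, y axis) that keep at least the given number of bases of the segment's common CDR3 start (x axis), as mean ± SD over 3 mice, for TRBV13-1 (blue), TRBV13-3 (red) and TRBV13-2 (grey). The mean of TRBV13-2 lies above both sisters at each count from 6 to 17 bases, and TRBV13-3 has the lowest mean at each count but 14.

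The centre of CDR3, from position 6 to 6 residues before the end, is the part least fixed by V and J. Glycine was its most common residue with both segments, at 36.9% ± 1.20 of residues with TRBV13-1, 34.7% ± 6.71 with TRBV13-3 and 35.7% ± 0.831 with all other V segments. No residue passed the test between the sisters (0 of 15 tested, 0.0%, edgeR; 0 at an unadjusted p under 0.05; DESeq2 was not run on residues). Aspartate made up 4.64%, 3.31% and 5.32% of centre residues with TRBV13-1 and 5.33%, 7.14% and 7.25% with TRBV13-3 in mice 1, 2 and 3 (log2 -0.53, adjusted p = 0.783), so the sets did not overlap, if barely. Glutamate went the other way, at 2.30% ± 0.896 with TRBV13-1 and 0.680% ± 0.0394 with TRBV13-3, or 10 of 460 against 4 of 580 residues (log2 1.55, adjusted p = 0.783). All other V segments had 7.70% ± 0.399 aspartate and 2.62% ± 0.179 glutamate, so neither sister had a higher mean than they did in either residue. Of the 15 tested residues, aspartate and glutamate were the only ones whose mouse values did not overlap between the sisters. Both were named after their values were seen.

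Clone sizes overlapped between the sisters. Of TRBV13-1 rearrangements 105 of 166 (63.3%) held 1 template, of TRBV13-3 130 of 208 (62.5%) and of all others 2477 of 3873 (64.0%). These shares count listed forms with the same CDR3 bases separately, and they were not worked out after merging. Merged where V, J and the CDR3 bases agreed, TRBV13-1 held 1.63, TRBV13-3 1.76 and all others 1.86 templates per rearrangement, with the mice pooled. The mean was 1.44, 1.61 and 1.72 templates per rearrangement for TRBV13-1 in mice 1, 2 and 3 and 1.69, 1.74 and 1.62 for TRBV13-3, so the sisters overlapped (difference -0.0894 ± 0.173, exact sign-flip p = 0.5). The difference was -0.328 in superior samples alone and 0.148 in inferior samples alone. In the superior sample of mouse 1, 20 of 22 TRBV13-1 rearrangements held 1 template (90.9%), the highest share for either segment in any sample, where TRBV13-3 had 10 of 17 (58.8%). Rearrangements with TRBJ2-7 were the larger ones. TRBV13-1 with TRBJ2-7 held 2.00, 2.38 and 2.80 templates per rearrangement in mice 1, 2 and 3, against 1.16, 1.43 and 1.29 with the other TRBJ2 segments (difference 1.10 ± 0.363, higher in 3 of 3 mice, exact sign-flip p = 0.25, adjusted p = 0.333). TRBV13-3 held 3.17, 3.27 and 2.22 against 1.09, 1.13 and 1.40 (difference 1.68 ± 0.746, higher in 3 of 3 mice, exact sign-flip p = 0.25, adjusted p = 0.333). The TRBV13-3 difference was 2.82 in superior samples alone and 1.17 in inferior samples alone. This was not particular to the pair: all other V segments had 2.39 ± 0.0585 against 1.32 ± 0.00873.

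The largest clonotypes of the pair carried from 11 to 17 leading V bases in CDR3. A clonotype here is a V segment, the CDR3 bases and a J segment in 1 mouse. The CDR3 bases of the 5 largest of each segment follow, without the last residue, because these clones hold the most templates; capitals mark the leading bases that match the segment's common start of 17 bases.
TRBV13-1 with TRBJ1-5, mouse 3 inferior: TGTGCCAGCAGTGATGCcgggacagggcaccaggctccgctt
TRBV13-1 with TRBJ2-3, mouse 2: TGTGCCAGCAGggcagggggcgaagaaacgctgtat
TRBV13-1 with TRBJ2-7, mouse 3 inferior: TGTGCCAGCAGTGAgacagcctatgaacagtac
TRBV13-1 with TRBJ2-7, mouse 3 superior: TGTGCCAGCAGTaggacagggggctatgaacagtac
TRBV13-1 with TRBJ2-3, mouse 3 superior: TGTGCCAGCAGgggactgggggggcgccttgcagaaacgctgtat
TRBV13-3 with TRBJ2-7, mouse 2, both samples: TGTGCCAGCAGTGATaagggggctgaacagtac
TRBV13-3 with TRBJ2-7, mouse 1 inferior: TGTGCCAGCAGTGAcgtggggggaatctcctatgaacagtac
TRBV13-3 with TRBJ2-7, mouse 2 superior: TGTGCCAGCAGTcagggttatgaacagtac
TRBV13-3 with TRBJ2-7, mouse 1 superior: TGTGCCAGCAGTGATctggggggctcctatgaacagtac
TRBV13-3 with TRBJ2-1, mouse 3, both samples: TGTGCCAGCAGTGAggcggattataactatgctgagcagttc
The largest TRBV13-1 clonotype, with TRBJ1-5, held 10 templates in mouse 3, all inferior, and 0 in the superior sample, which allows up to 0.264% of templates there. The TRBJ2-7 clonotypes of TRBV13-1 held 6 templates each, 1 clonotype per sample of mouse 3, and its TRBJ2-3 clonotypes held 6 in mouse 2 and 5 in mouse 3. The largest TRBV13-3 clonotype, with TRBJ2-7, held 18 templates in mouse 2, of which 13 were superior and 5 inferior, over 3 listed forms that differ only before CDR3. The other TRBJ2-7 clonotypes of TRBV13-3 held 9 inferior and 6 superior templates in mouse 1 and 9 superior templates in mouse 2, and the TRBJ2-1 clonotype held 6. Clonotypes of 5 or more templates numbered 5 for TRBV13-1, with TRBJ2-7 in 2, and 6 for TRBV13-3, with TRBJ2-7 in 5. The 5 largest held 12.5% of TRBV13-1 and 13.9% of TRBV13-3 templates.

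Few rearrangements of the pair were found in both samples of a mouse. TRBV13-1 had 2 of 166 (1.20%, 95% Wilson interval 0.331% to 4.29%) and TRBV13-3 2 of 208 (0.962%, 0.264% to 3.44%), against 158 of 3873 for all other V segments (4.08%, 3.50% to 4.75%) and 24 of 560 for TRBV13-2 (4.29%, 2.90% to 6.30%). By mouse the pair had 0 of 108, 3 of 98 and 1 of 168, that is 0% (up to 2.78% by the limit of 3 counts), 3.06% and 0.595%, and all other V segments had 3.32%, 5.04% and 3.97%. The pair was lower in 3 of 3 mice, with a difference of -2.89 ± 0.790 points (exact sign-flip p = 0.25, the smallest possible, adjusted p = 0.333); weighted by templates the difference was -6.06 points. The comparison was chosen after the data were seen. Among the 18 V segments with 50 or more rearrangements, TRBV13-3 had the lowest share and TRBV13-1 the third lowest, with TRBV29 between them at 1 of 92. Templates per rearrangement were 1.64 for the pair and 1.66 for the others. With rearrangements merged where V, J and the CDR3 bases agreed, the pair had 4 of 360 (1.11%) and the others 153 of 3456 (4.43%). Templates per merged rearrangement were 1.70 for the pair and 1.86 for the others, so sizes were less alike than before merging. What this size difference does to the sharing was not tested.

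**Figure D5:**
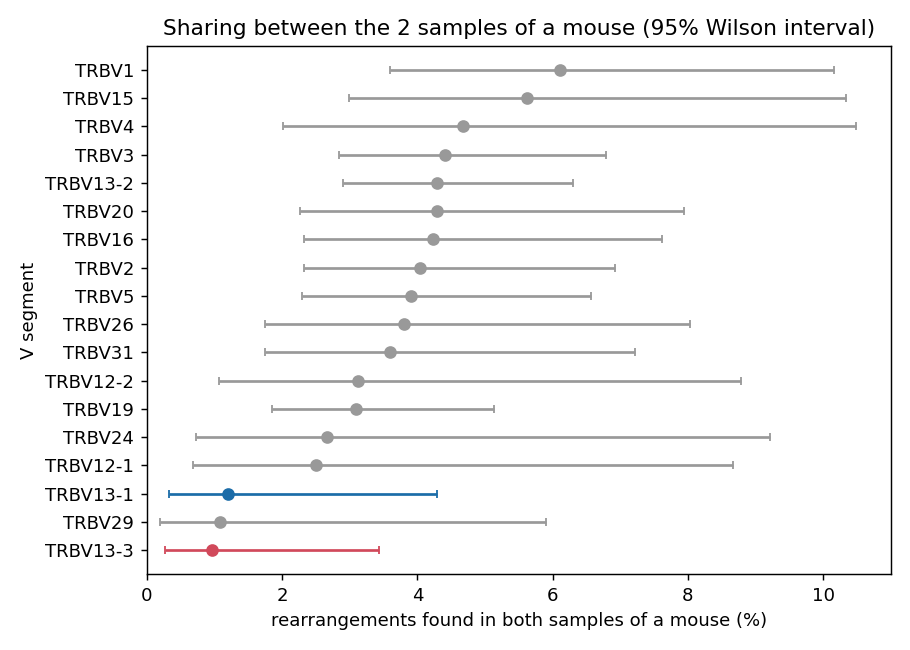
Share of distinct rearrangements found in both samples of a mouse (percent, x axis) for the 18 V segments with 50 or more rearrangements (y axis, in order), with 95% Wilson intervals; TRBV13-1 is blue and TRBV13-3 red. Both sit at the low end, with intervals that reach up to 4.29% and 3.44% and overlap those of most other segments.

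The 4 shared rearrangements were 2 of each segment, and 3 of them are among the 10 largest clonotypes shown above. TRBV13-1 with TRBJ2-3 held 1 superior and 5 inferior templates in mouse 2. The fourth, TRBV13-1 with TRBJ2-5, held 1 and 1 in the same mouse. TRBV13-3 with TRBJ2-7 is the largest clonotype of the pair, and TRBV13-3 with TRBJ2-1 held 4 superior and 2 inferior templates in mouse 3. Thus 3 of the 4 lay in mouse 2. The other 7 of the 10 largest clonotypes were each found in 1 sample only.

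Sharing between mice was rare too. Counted by V segment, CDR3 residues and J segment, 0 of 160 TRBV13-1 clonotypes were found in 2 or more mice, which allows up to 1.88%. For TRBV13-3 the count was 2 of 192 (1.04%, Wilson 0.286% to 3.72%), beside 28 of 3359 for all other V segments (0.834%). The bases of these TRBV13-3 clonotypes show whether the mice had the same residues from the same bases, with capitals as above.
TRBV13-3 with TRBJ2-2, mouse 1: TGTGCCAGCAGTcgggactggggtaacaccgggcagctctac
TRBV13-3 with TRBJ2-2, mouse 3: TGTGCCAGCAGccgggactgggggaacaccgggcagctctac
TRBV13-3 with TRBJ2-4, mouse 1: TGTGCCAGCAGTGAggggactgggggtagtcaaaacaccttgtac
TRBV13-3 with TRBJ2-4, mouse 3: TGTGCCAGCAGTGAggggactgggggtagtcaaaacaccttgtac
The clonotype with TRBJ2-2 was encoded by different bases in mice 1 and 3 and held 2 templates in the superior sample of each. The clonotype with TRBJ2-4 had identical bases in both mice and held 1 template in the inferior sample of each.

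CDR3 residues and J segment together also matched a rearrangement of another V segment in 7 of 160 TRBV13-1 and 8 of 192 TRBV13-3 combinations, 13 different ones in all. The share of such matches among the other V segments was not worked out, so these counts have no background beside them. Both sisters carried 2 of the 13 combinations, each with different bases, as the sequences show.
TRBV13-1 with TRBJ2-7, mouse 3: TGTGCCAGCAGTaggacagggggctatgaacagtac
TRBV13-3 with TRBJ2-7, mouse 3: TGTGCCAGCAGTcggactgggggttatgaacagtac
TRBV13-1 with TRBJ1-4, mouse 1: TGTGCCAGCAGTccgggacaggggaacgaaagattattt
TRBV13-3 with TRBJ1-4, mouse 2: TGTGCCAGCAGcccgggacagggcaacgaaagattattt
The TRBJ2-7 pair came from the superior sample of mouse 3, in 6 TRBV13-1 and 2 TRBV13-3 templates, and the same residues stood with TRBV2 in 4 templates of the inferior sample of that mouse. The TRBJ1-4 pair held 1 template in each mouse. A further 2 combinations were shared with TRBV13-2, and these had the same CDR3 bases in the same sample.
TRBV13-1 with TRBJ2-7, mouse 1: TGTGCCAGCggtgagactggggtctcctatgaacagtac
TRBV13-3 with TRBJ1-4, mouse 2: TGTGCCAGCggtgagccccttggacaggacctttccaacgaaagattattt
Both begin with CASG, like most TRBV13-2 rearrangements and 2 of 165 TRBV13-1 and 2 of 206 TRBV13-3 rearrangements. The TRBJ2-7 one held 5 templates with TRBV13-2 and 1 with TRBV13-1 in the inferior sample of mouse 1, and the stretch before CDR3 in the latter differed at 2 bases from the most common form of either segment. The TRBJ1-4 one held 2 templates with TRBV13-2 and 1 with TRBV13-3 in the inferior sample of mouse 2, and the stretch before CDR3 in the latter was identical to the TRBV13-3 form.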

How the data were processed

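The authors deposited a whole-number count for each rearrangement. Nothing in the files tells whether it is a number of reads or of templates, the input DNA molecules; with sums of 667 to 1855 per sample it is taken as templates. The productive frequency they deposited is a fraction of the sample's sum and served only to check this. The submitters' processing notes name mm10; for the aligner and caller, the sources used here give no name. Rearrangements were counted once per mouse, with both samples pooled, unless templates are named.

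V usage, J pairing and centre residues were tested with edgeR 4.0.16 (quasi-likelihood test, common dispersion, totals as library size, 10 or more counts, Benjamini-Hochberg adjustment at 0.05 over all features tested; R 4.3.3), with mouse as a block except for V usage; DESeq2 1.42.0 was an alternative for V usage and J pairing. The edgeR steps were also run on simulated counts with the same expected shares in all mice, and no result here rests on that run. Both samples of a number come from the same mouse, so the numbers pair them; over V segments, the samples' deviations from their group means had correlations of 0.232, 0.215 and -0.34 in mice 1, 2 and 3. Single values were compared with two-sided exact sign-flip tests over 3 mice, whose smallest p is 0.25, adjusted over 6 measures, and over 8 further comparisons chosen after the data were seen. Wilson intervals and limits of 3 counts for a 0 cover counting error only, and amplified copies are not independent molecules. Python 3.11.15 ran the rest, with scipy 1.17.1, pandas 2.3.3 and numpy 2.4.6.

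The members, lists and tests were chosen with earlier results of these data known. Named J segments were the 3 with the largest difference in each direction; named clonotypes were the 5 largest of each segment, those in 2 or more mice and those found with both V segments. Any other named J segment, residue or clonotype was chosen after its values were seen.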

Additional observations from a re-analysis of the deposited data

How the results depend on the processing

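Across the alternatives run, 121 of 144 values of the main comparisons kept their direction and their side of the threshold. A further 22 changed direction and 1 crossed the threshold. The values from sign-flip tests could not cross the threshold of 0.05, because the smallest exact p over 3 mice is 0.25. For these values, only the direction could change. Of the values of single J segments and residues, 203 of 211 kept both and 8 changed direction. No edgeR or DESeq2 comparison of the 2 segments was past the threshold in any setting. With TMM normalization 1 of the V by J pairs was called, and it was not one of TRBV13-1 or TRBV13-3.

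The TRBV13-3 usage difference (log2) was -0.011 by DESeq2 and -0.211 with each rearrangement once (-0.222 with the replicate block added, an alternative chosen after seeing the data), and -0.092 to 0.216 without 1 mouse. With the replicate block for mouse it was 0.052, and 0.205 for TRBV13-1; the block changed no call. TRBV13-1 minus TRBV13-3 in mean CDR3 length was -0.0869 after merging and -0.100 in superior samples, and -0.120 to 0.134 without 1 mouse. The TRBJ2 difference was 1.43 points in superior and 1.53 in inferior samples, and -6.10 to 4.45 without 1 mouse. The TRBD1 difference was 1.82 points weighted by count, -20.6 in superior and 9.66 in inferior samples, and -12.3 to 9.74 without 1 mouse. Templates per rearrangement differed by -0.328 in superior samples, 0.148 in inferior samples and 0.0808 without TRBJ2-7. The difference in sharing between samples was -2.62 points weighted by count, and -0.516 to 1.56 without 1 mouse. The difference in 14 bases kept was -6.60 points in superior and 3.47 in inferior samples, and -2.23 to 3.47 without 1 mouse, and TRBV13-3 minus TRBV13-1 in share of rearrangements was -0.0058 points in superior samples.

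Among single J segments (log2), TRBJ2-3 between the sisters was 0.347 with counts; without 1 mouse, TRBJ2-1 was -0.829 to 0.21 and TRBJ1-4 -0.173 to 0.698, and for TRBV13-3 against all other V segments TRBJ1-5 was -0.82 to 0.138 and TRBJ2-3 -0.02 to 0.561, each turning without mouse 3. Over CDR3 positions 6 and 7 aspartate was 0.052 and valine -0.117, and valine was -0.336 with counts. The cause of these changes was not tested. With 166 and 208 rearrangements over 3 mice, no sign-flip test could give a p below 0.25, and shares rest on few counts.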
